A study of Mus musculus with 8 samples.

Results

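The genes described here are 10 mouse germline genes, Prm1, Prm2, Prm3, Tnp2, Dazl, Ddx4, Mael, Sycp3, Tex101 and Stk31, of the 48709 genes in the count files. They were chosen by name with the contrast between mutant and control cortex already known, so their raw counts, normalized counts and fold changes in that contrast are a description and carry no test. Bulk RNA sequencing was made from the cortex of mice at P3, with 4 dcKO and 4 control samples, and by the methods the tissue was dorsal telencephalon. The dcKO mice were BAF155 fl/fl and BAF170 fl/fl with hGFAP-Cre, and the methods give the controls as BAF155 fl/+ and BAF170 fl/+ with the same Cre, whereas the sample titles call them WT. Both groups therefore carry Cre by the methods, driven by a human GFAP promoter, and the study found its activity in most cells of this tissue. The strain was C57BL/6J. Lane 5 held replicates 1 and 2 of both groups, lane 6 held both replicates numbered 3, and lane 7 held both numbered 4. The totals were 22002784, 22812236, 28249608 and 32110285 counts in the dcKO libraries, and 22106718, 21126713, 31805395 and 30553135 in the control libraries.

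Protamines are small arginine-rich proteins that replace histones in the sperm nucleus, and transition proteins occupy the DNA between the removal of histones and the loading of protamines. Their genes are normally transcribed in haploid spermatids, and Prm1, Prm2, Prm3 and Tnp2 lie side by side in the mouse genome. The other 6 genes act earlier in germ cells: Dazl encodes an RNA-binding protein, Ddx4 an RNA helicase, Mael and Stk31 proteins of germ cell granules and small RNA pathways, Sycp3 a structural protein of the synaptonemal complex, and Tex101 a surface protein of germ cells. BAF155 and BAF170 are scaffold subunits of the BAF chromatin remodeling complex.

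The deleted genes were lower in every dcKO library. Smarcc1, which encodes BAF155, had 1858, 1738, 2546 and 2806 counts in dcKO replicates 1 to 4 against 3119, 3278, 5134 and 4620 in control replicates 1 to 4, which gave -0.97 ± 0.08 on the log2 scale (SE; adjusted p = 5.44e-06, quasi-likelihood F test of edgeR). Smarcc2, which encodes BAF170, had 6815, 6284, 7503 and 10574 counts in dcKO against 10870, 9565, 14733 and 13523 in control, or -0.77 ± 0.08 (adjusted p = 2.28e-05, edgeR). Both genes were reduced and not lost, and their counts include exons outside the deleted part. In bulk tissue, fewer cells of a type and less RNA per cell cannot be told apart. Of the cortical neuron markers Emx1, Neurod2, Neurod6, Tbr1 and Slc17a7, the lowest count in any library was 189, for Emx1 in dcKO replicate 1. Xist was high in 1 library of each group, with 18146 counts in control replicate 4 and 31218 in dcKO replicate 3, and the Y-linked Ddx3y had 6 and 22 counts in those libraries.

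Prm1 was present in all 4 dcKO cortices and close to absent in the controls. It had 684, 751, 520 and 977 counts in dcKO replicates 1 to 4, and 2, 11, 1 and 3 counts in control replicates 1 to 4. As CPM, counts scaled by TMM library sizes, this was 29.2, 31.8, 17.7 and 29.5 in dcKO and 0.0920, 0.542, 0.0332 and 0.104 in control. Every dcKO library lay far above every control library, dcKO replicate 3 was the lowest of its group, and control replicate 2 held 11 of the 17 control counts. The means were 27.1 ± 6.33 CPM in dcKO and 0.193 ± 0.235 CPM in control (SD, n = 4), and the log2 fold change was 7.27 ± 0.44 (SE). Without control replicate 2 it was 8.42. Summed over the groups, 2932 counts against 17 gave a ratio of rates of 173, with an exact 95% interval of 108 to 298 that covers counting error only. The difference was present within each lane: on lane 5 the libraries had 684 and 751 counts against 2 and 11, on lane 6 they had 520 against 1, and on lane 7 they had 977 against 3.

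**Figure D1:**
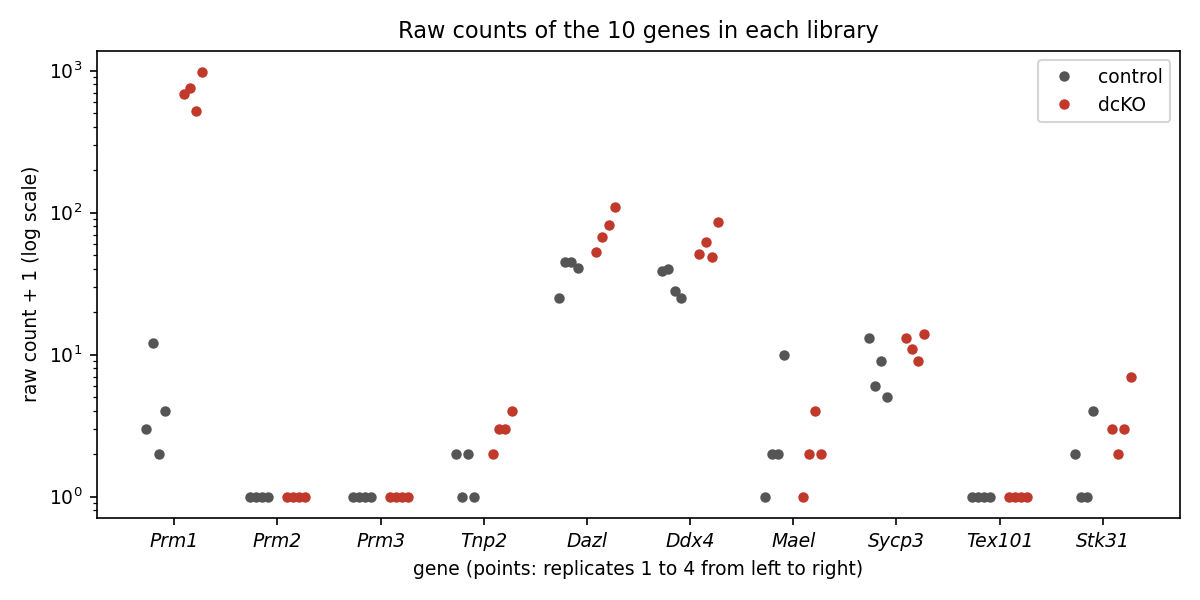
Raw count plus 1, on a log axis, of the 10 genes in each of the 8 libraries, with control in grey and dcKO in red and replicates 1 to 4 from left to right. Prm1 ran from 520 to 977 counts in dcKO and from 1 to 11 in control, while Prm2, Prm3 and Tex101 were at 0 in all 8 libraries.

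The label of a protamine cluster did not hold for the data: of the 4 genes that lie together, Prm1 alone was detected at a level. Prm2, which encodes the other main protamine of mouse sperm, had 0 counts in all 8 libraries, and so did Prm3. A count of 0 allows up to 3 counts, which is 0.0285 CPM on the raw totals of the 4 dcKO libraries together, without TMM scaling. Tnp2, the transition protein gene, had 1, 2, 2 and 3 counts in dcKO and 1, 0, 1 and 0 in control. Its 8 counts against 2 gave a ratio of 4.02 with an exact 95% interval of 0.801 to 38.8, which covers counting error only. Per kilobase of annotated exon, the mean dcKO level was 47.4 CPM for Prm1 and 0.129 CPM for Tnp2. Prm1 is therefore used below as the name of the gene that differed, in place of the cluster.

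The 4 genes span chr16:10787936-10805839 on mm10, all on the minus strand. Prm1 (ENSMUSG00000022501) covers chr16:10796326-10805839, Prm2 covers chr16:10791380-10796134, Prm3 covers chr16:10790505-10790914 and Tnp2 covers chr16:10787936-10788660. GENCODE gives Prm1 2 transcripts that share their last exon at chr16:10796326-10796533. Prm1-201 has 469 bases in 2 exons, and Prm1-202 has 460 bases in 3 exons, the first of them far upstream at chr16:10805738-10805839. The counts are sums per gene, so the transcripts cannot be told apart. No Prm1 exon overlapped an exon of another annotated gene. None of its 541 distinct stretches of 30 bases occurred in a GENCODE transcript of another gene on either strand. The sequence of the Cre transgene was not among those searched. Whether it shares letters with Prm1, and so adds to the Prm1 counts, was not tested. The pseudogene Gm10343, which lies inside the long intron of Prm1-202, had between 2 and 8 counts in every library of both groups.

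The promoter windows are shown because they separate the protamine genes from the other members by a feature that the choice of genes did not use. RefSeq (GRCm38.p6) gave a window for all 10 genes, and the 250 bases before each start held 0 CG pairs in Prm1 and 2 each in Prm2, Prm3 and Tnp2. Dazl held 20, Ddx4 31, Mael 18, Sycp3 12 and Tex101 14, and the 2 windows of Stk31 held 21 and 26. The median over 32851 promoters was 6. Prm1 and Prm2 thus had similarly few CG pairs, although their counts differed. The lines below give the minus strand from 5′ to 3′, up to the first exon that GENCODE annotates, with CG pairs in capitals: Prm1 at chr16:10796887-10797073, Prm2 at chr16:10792106-10792355, and Dazl at chr17:50293637-50293870.
Prm1: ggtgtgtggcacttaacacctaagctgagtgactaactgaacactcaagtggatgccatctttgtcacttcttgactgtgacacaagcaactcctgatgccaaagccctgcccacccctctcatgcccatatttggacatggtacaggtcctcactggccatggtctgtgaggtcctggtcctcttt
Prm2: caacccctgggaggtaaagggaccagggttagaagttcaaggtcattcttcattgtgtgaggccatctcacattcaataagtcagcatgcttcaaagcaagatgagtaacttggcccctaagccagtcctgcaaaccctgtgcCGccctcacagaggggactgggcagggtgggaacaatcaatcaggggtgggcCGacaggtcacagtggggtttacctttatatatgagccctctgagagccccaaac
Dazl: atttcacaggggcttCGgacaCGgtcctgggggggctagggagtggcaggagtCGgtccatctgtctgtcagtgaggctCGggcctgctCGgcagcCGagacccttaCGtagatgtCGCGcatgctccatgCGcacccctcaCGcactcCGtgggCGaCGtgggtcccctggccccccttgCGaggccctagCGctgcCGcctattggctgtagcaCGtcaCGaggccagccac

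In these windows 4 motifs were searched on both strands: TGACNTCA, a form of the cAMP response element, CACGTG, the E-box, GGCGGGA, an E2F motif, and TATAAA. They occurred in 7.49%, 6.02%, 9.75% and 12.4% of the 32851 windows. TGACNTCA occurred in Prm1, Prm3 and Tex101, of which Prm1 alone had counts. CACGTG occurred in Ddx4, Mael, Sycp3 and Stk31, GGCGGGA in Ddx4 and Mael, and TATAAA in Prm2 and Stk31, with no overlap between matches. A match is a description of letters, and no window of Tnp2 or Dazl held any of the 4. The matches of Prm1 and Prm3 are given with the bases around them, in capitals, on the minus strand at chr16:10796869-10796898 and chr16:10790956-10790985. The Prm1 match lies 64 to 57 bases before the RefSeq start and runs into the first exon of Prm1-201, which GENCODE starts further upstream.
Prm1: ctggtcctcttTGACTTCAtaattcctagg
Prm3: tggagcctttgTGAGGTCAgtgccacaccc

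Among the other members, Dazl and Ddx4 were detected in both groups, so they were not silent in control cortex. Dazl had 52, 66, 81 and 108 counts in dcKO and 24, 44, 44 and 40 in control, which is 2.22, 2.80, 2.76 and 3.26 CPM against 1.10, 2.17, 1.46 and 1.39 CPM. The groups did not overlap, but the lowest dcKO library (2.22 CPM) lay close to the highest control (2.17 CPM). The log2 fold change was 0.86 ± 0.23 (SE). Ddx4 had 50, 61, 48 and 85 counts in dcKO and 38, 39, 27 and 24 in control, which is 2.14, 2.58, 1.64 and 2.57 CPM against 1.75, 1.92, 0.896 and 0.833 CPM. The groups overlapped, since dcKO replicate 3 lay under control replicates 1 and 2, but on each lane every dcKO library was above every control library. The log2 fold change was 0.75 ± 0.29 (SE). Per kilobase, mean dcKO levels were 0.723 CPM for Dazl and 0.740 CPM for Ddx4, against 47.4 CPM for Prm1.

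The last 4 members were at or near the limit of detection. Sycp3 had 12, 10, 8 and 13 counts in dcKO and 12, 5, 8 and 4 in control, and the groups overlapped. Its exons overlap those of Chpt1 over 660 bases, and 46.7% of its stretches of 30 bases occur in Chpt1 transcripts, so without strand its counts are uncertain. Mael had 5 counts in dcKO and 11 in control, 9 of them in control replicate 4, a ratio of 0.456 with an exact 95% interval of 0.124 to 1.42. Stk31 had 11 counts against 4, a ratio of 2.76 with an interval of 0.818 to 11.9. Tex101 had 0 counts in all 8 libraries.

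In all, 4 of the 10 members passed the filter on low counts, and the other 6 had under 10 counts in every library. In 2 of the 10, Prm1 and Dazl, every dcKO library lay above every control library, beside 16.7% of the 16525 genes tested. Nothing is read from this count, since the members were chosen on the same contrast. Across all 16525 genes, 3074 (18.6%) were higher and 3128 (18.9%) lower in dcKO with an adjusted p under 0.05 (edgeR), so calls were spread over much of the genome. Without dcKO replicates 1 and 2 these counts were 1388 and 1581, and on lane 5 alone 1951 were higher. With library totals in place of TMM, the genome-wide median moved by 0.121 on the log2 scale, and 68.6% of the calls were higher in place of 49.6%.

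The genes around the protamine interval did not share the pattern of Prm1. Within 500000 bases on either side the files hold 30 annotated genes besides the members, and 17 passed the filter. Of these 3 were higher and 3 lower in dcKO, 17.6% each way, with a median log2 fold change of 0.03, against 18.6%, 18.9% and 0.02 over all genes. Socs1, a cytokine signaling suppressor and the nearest tested gene, was at 0.04 ± 0.26 on the log2 scale (adjusted p = 0.912, edgeR) and at -0.16 on lane 5 alone. The next nearest, Rmi2 and Clec16a, had 0.21 ± 0.25 (adjusted p = 0.545, edgeR) and -0.27 ± 0.12 (adjusted p = 0.107, edgeR). The 6 called genes lay further out than these. Snn was lower (-0.48 ± 0.07, adjusted p = 0.000372, edgeR), as were Emp2 (-1.49 ± 0.41) and Gspt1 (-0.24 ± 0.07), and the microRNA gene Gm23935 (0.94 ± 0.25), 2610020C07Rik (0.84 ± 0.28) and Rsl1d1 (0.22 ± 0.07) were higher. Of these calls Snn alone held in every alternative run, and the count fell from 6 to 1 without dcKO replicates 1 and 2, to 3 on lane 5 alone, with no filter or with the replicate number as a block, to 1 without control replicate 3, to 3 without control replicate 4 or dcKO replicate 1, and to 2 without dcKO replicate 2. Snn, Gspt1 and 2610020C07Rik have exons that overlap those of other genes.

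**Figure D2:**
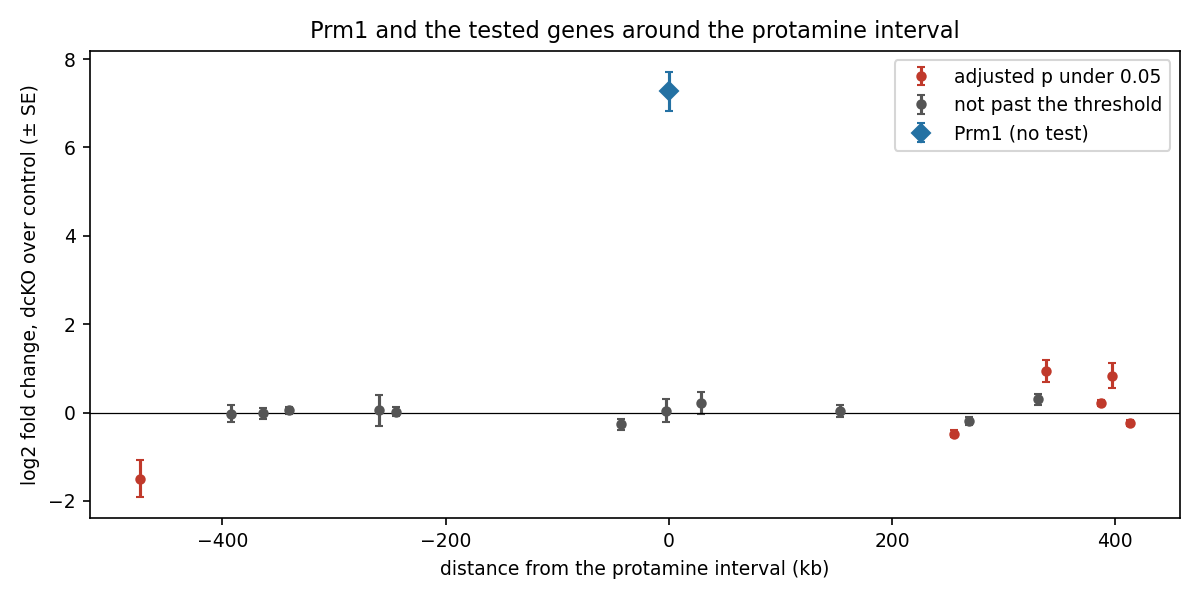
Log2 fold change of dcKO over control with its SE (vertical) against the distance in kb from the interval of the 4 protamine and transition protein genes (horizontal), for the 17 tested neighbours and Prm1. Prm1 stood at 7.27 and the neighbours ran from -1.49 to 0.94, with the called genes in red.

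Lists of other germline genes, with the members left out, were compared with the same shares over all genes. Of 50 spermatid genes, 35 did not pass the filter and 11 had 0 counts in all libraries, among them Tnp1, the other transition protein gene, and Smcp. Of the 15 tested, 4 passed the threshold and all 4 were higher (26.7%, beside 18.6% of all genes), with a median log2 fold change of 0.27. Zpbp, an acrosomal zona pellucida binding protein gene, rose from 1.14 ± 0.372 to 2.35 ± 0.38 CPM (SD, n = 4), Catsper2, which encodes a sperm calcium channel subunit, from 3.82 ± 0.95 to 6.64 ± 0.763 CPM, and Spag6l, an axoneme gene, from 8.89 ± 1.05 to 12.4 ± 1.39 CPM. Exons of Zpbp overlap those of Spata48 and exons of Catsper2 those of Pdia3. Acr, the acrosin gene, was at 0.79 ± 0.24 (adjusted p = 0.0194, edgeR), and its call was lost without control replicate 2, 3 or 4 or dcKO replicate 1 or 2. Zpbp, Catsper2 and Spag6l held their calls in every run that dropped 1 library, and each lost its call in some other alternative. Over those other alternatives their lowest log2 fold changes were 0.934, 0.645 and 0.366. Without dcKO replicates 1 and 2, 1 spermatid gene was called, and 2 on lane 5 alone. Among 16 tested regulators of spermatid transcription, 5 were higher (31.3%) and 1 lower (6.25%), beside 18.6% and 18.9% of all genes, with a median of 0.17. Rfx2, a transcription factor gene needed in spermatids, had 0.89 ± 0.16 (adjusted p = 0.00105, edgeR), and Camk4, a kinase gene also transcribed in neurons, had -1.08 ± 0.20 (adjusted p = 0.00246, edgeR). That count of 6 fell to 2 without dcKO replicates 1 and 2, and to 3 on lane 5 alone, without control replicate 4 or without dcKO replicate 1. Crem, which encodes a regulator known to act at cAMP response elements of spermatid genes, did not pass the threshold at 0.34 ± 0.13 (adjusted p = 0.0528, edgeR).

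Of 26 tested meiosis genes 13 passed the threshold and all 13 were higher, beside 18.6% higher and 18.9% lower of all genes, with a median log2 fold change of 0.58 beside 0.02. Stag3, a meiotic cohesin gene, was at 13.9 ± 3.5 CPM in control and 35.2 ± 9.74 CPM in dcKO (SD, n = 4), a log2 fold change of 1.35 ± 0.24 (SE). Zcwpw1, which encodes a histone reader of meiotic recombination, had 1.30 ± 0.15 (adjusted p = 5.37e-05, edgeR), and its exons overlap those of Pilra. Mnd1, Mei4 and Ccdc36 (Iho1), which act in recombination, had log2 fold changes of 1.47 ± 0.34, 1.32 ± 0.28 and 1.29 ± 0.25. Syce2, a synaptonemal complex gene, had 0.44 ± 0.11 (adjusted p = 0.00628, edgeR). The summed level of the 45 genes was 182, 197, 154 and 209 CPM in dcKO and 127, 107, 104 and 107 CPM in control, so the groups did not overlap. The calls fell to 7 without dcKO replicates 1 and 2 and to 6 on lane 5 alone, all of them higher. Whether the list differed from other genes was not tested.

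Of 16 tested piRNA pathway genes 3 were higher (18.8%) and 1 lower (6.25%), beside 18.6% and 18.9% of all genes, with a median of 0.04. Tdrd9, a helicase gene, had 1.87 ± 0.36 (adjusted p = 0.00169, edgeR) and Pld6, a mitochondrial nuclease gene, 1.07 ± 0.19 (adjusted p = 0.00101, edgeR). Mybl1 encodes a transcription factor of piRNA genes. The Mybl1 log2 fold change was 0.57 ± 0.16 and lost its call without control replicate 4 (adjusted p = 0.0505, edgeR), without both dcKO replicates 1 and 2 (0.0963), and on lane 5 alone (0.189). Henmt1, which encodes the methyltransferase of piRNA ends, had -0.95 ± 0.22 (adjusted p = 0.00465, edgeR), and its exons overlap those of Gm9857. Without both dcKO replicates 1 and 2 the call of Henmt1 was lost (adjusted p = 0.0602, edgeR). Of 21 tested germ cell identity genes 4 were higher (19.0%) and 2 lower (9.52%), with a median of 0.12. Tfap2c, which encodes a factor of primordial germ cells that also acts in cortical progenitors, rose from 1.99 ± 0.704 to 21.8 ± 6.48 CPM (SD, n = 4), and Lhx8 had 2.03 ± 0.54 (adjusted p = 0.0127, edgeR), a call lost with the replicate number as a block (adjusted p = 0.051, edgeR) and on lane 5 alone, where the log2 fold change was 1.27 (adjusted p = 0.399, edgeR). The groups overlapped for Lhx8, at 2.27, 0.424, 2.70 and 1.60 CPM in dcKO and 0.276, 0.838, 0.398 and 0.243 CPM in control. Kit and Zbtb16, which are also transcribed in brain cells, fell by 0.96 and 1.21 on the log2 scale. Dppa3 and Dppa4 had 0 counts in all libraries.

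Of 38 tested genes known to hold germline genes silent, 8 were higher (21.1%) and 3 lower (7.89%), beside 18.6% and 18.9% of all genes, with a median of 0.02. Ring1 had 0.56 ± 0.11 (adjusted p = 0.00203, edgeR) and Hdac1 0.70 ± 0.19 (adjusted p = 0.0113, edgeR), while Chd4 had -0.43 ± 0.09 (adjusted p = 0.00236, edgeR) and Lsm14b -0.55 ± 0.07 (adjusted p = 8.41e-05, edgeR). Ring1 is a subunit of Polycomb repressive complexes, Hdac1 a histone deacetylase and Chd4 the remodeler of the NuRD complex. Trim28, Hdac2 and Dnmt3a, the 3 most abundant that were not called, had 0.02 ± 0.07, 0.08 ± 0.07 and -0.06 ± 0.11, and Dnmt3a was at 0.06 with library totals. The count of 11 fell to 4 without dcKO replicates 1 and 2, to 5 on lane 5 alone, and to 7 without control replicate 3, control replicate 4 or dcKO replicate 1.

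**Figure D3:**
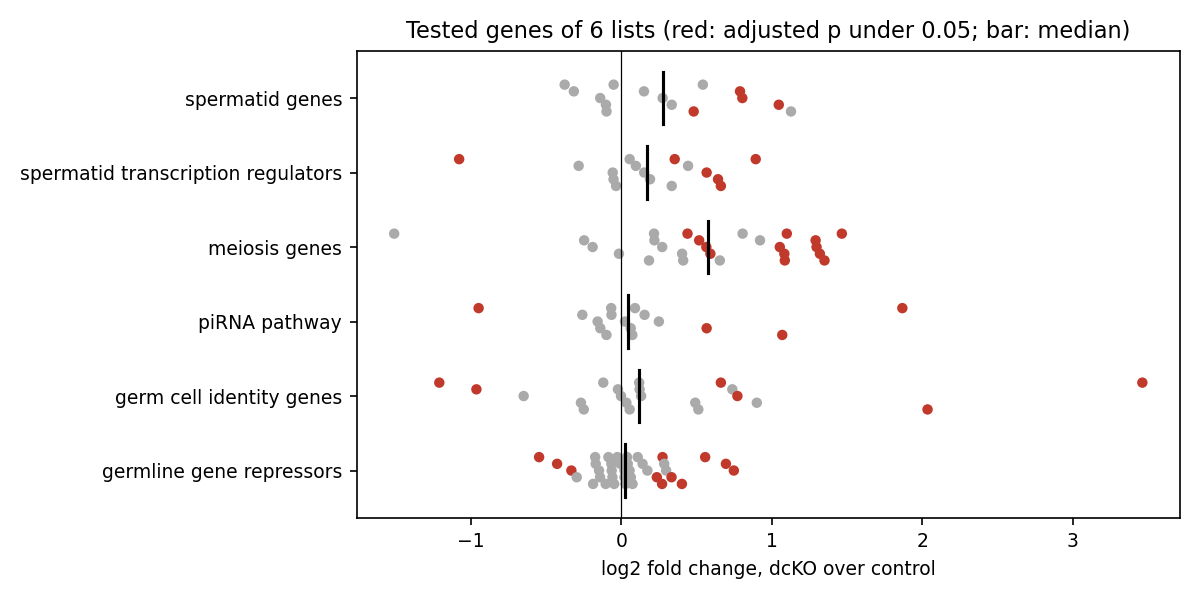
Log2 fold change of dcKO over control (horizontal) for each tested gene of the 6 germline lists (rows), with genes at an adjusted p under 0.05 in red and the median of each list as a black bar. The median of the meiosis genes was 0.58, and the medians of the other 5 lists ran from 0.02 to 0.27.

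Markers of other cells moved with the groups in part. The summed level of 20 choroid plexus markers was 730, 1307, 72.1 and 52.8 CPM in dcKO and 50.4, 58.4, 51.7 and 47.1 CPM in control, and Ttr, its most abundant gene by the mean over all 8 libraries, had 13660, 26614, 464 and 57 counts in dcKO and 69, 190, 2 and 52 in control. In every control library and in dcKO replicates 3 and 4 Enpp2 of the same list had more counts than Ttr. Some genes of lower level in the list differed from that sum. In 5 of 13 tested every dcKO library lay above every control library, as for Prm1, beside 16.7% of all 16525 genes. Otx2 had 200, 322, 90 and 131 counts in dcKO and 6, 5, 7 and 2 in control. 1500015O10Rik had 396, 545, 202 and 161 against 23, 19, 43 and 20, and Lmx1a had 58, 68, 18 and 39 against 5, 3, 8 and 1. The defining markers of this list, Ttr, Folr1, Kl, Aqp1 and Clic6, did not have every dcKO library above every control. Folr1 had 129, 226, 11 and 3 counts in dcKO and 7 to 16 in control. Aqp1 had 177, 302, 48 and 34 against 13 to 42, and Clic6 had 252, 441, 58 and 21 against 14 to 21. Kl was at -0.50 ± 0.36 on the log2 scale (adjusted p = 0.288, edgeR). The log2 fold change of Prm1 was 7.07 without dcKO replicates 1 and 2. Of 13 tested choroid plexus markers 6 passed the threshold, all higher (46.2%), beside 18.6% higher and 18.9% lower of all genes. The filter leaves other numbers of these choroid plexus markers in other runs. On lane 5 alone 17 of 20 passed, beside 1951 higher and 2295 lower of all 16505 genes. Without dcKO replicate 4, 12 of 16 passed, beside 3308 higher and 3129 lower of 16481. Among genes with at least 10 counts in every library, 3 of 8 passed, beside 2974 higher and 2911 lower of 15046. Testis somatic markers summed to 277, 90.7, 198 and 68.4 CPM in dcKO and 167, 75.9, 137 and 95.1 CPM in control, with Ptgds the most abundant by the same mean. Of 8 tested 1 was higher (12.5%), beside 18.6% of all genes, or 2 of 9 without control replicate 2 or dcKO replicate 3. That gene was Cyp11a1 (1.48 ± 0.574 CPM in dcKO and 0.518 ± 0.158 CPM in control, adjusted p = 0.00342, edgeR). Of that list Gata4 was at 0 in all libraries. Among the defining markers Cyp17a1 had at most 1 count in any library, Dhh had 3 to 14 and Amh 11 to 34. Insl3 had 3, 2, 4 and 6 counts in dcKO and 0, 0, 2 and 1 in control, and Star, with 254 to 422 counts, was at 0.03 ± 0.10 on the log2 scale (adjusted p = 0.861, edgeR). Motile cilia and ependymal markers summed to 106, 111, 83.5 and 99.8 CPM in dcKO and 94.1, 99.9, 98.5 and 75.4 CPM in control, with Drc1 the most abundant. Of 28 tested 6 were higher (21.4%) and 7 lower (25%), beside 18.6% and 18.9% of all genes. These 13 calls became 7 without control replicate 3 or without both dcKO replicates 1 and 2, and 8 without dcKO replicate 1. Of their 4 defining markers Foxj1 had 181 to 222 counts in dcKO and 271 to 482 in control (-0.92 ± 0.12, adjusted p = 0.000147, edgeR), and Ccdc153 had 0 or 1 in dcKO and 12 to 38 in control (-5.98 ± 0.67, adjusted p = 4.19e-05, edgeR). Rsph1 had 36 to 64 counts in dcKO and 55 to 80 in control (-0.65 ± 0.26, adjusted p = 0.0643, edgeR), and Tmem212, which did not pass the filter, had 0 to 2 in dcKO and 7 to 14 in control. Tekt1, another gene of the list, rose from 2.69 ± 0.311 to 13.5 ± 2.20 CPM (SD, n = 4). Midbrain and thalamus neuron markers summed to 109, 136, 105 and 121 CPM against 106, 103, 98.5 and 91.4 CPM, with Slc17a6 the most abundant. Of 13 tested 5 were higher (38.5%) and 2 lower (15.4%), beside 18.6% and 18.9% of all genes. These 7 calls became 4 without control replicate 2 or among genes with at least 10 counts in every library, and 3 on lane 5 alone. Gbx2, the called gene with the largest log2 fold change, had 33, 46, 32 and 50 counts in dcKO and at most 1 in control. Of the other defining markers Th had 1.36 ± 0.39 (adjusted p = 0.0154, edgeR) and Tcf7l2 0.60 ± 0.15 (adjusted p = 0.00678, edgeR). Slc17a6 had 0.24 ± 0.13 (adjusted p = 0.177, edgeR) and Slc6a3 0.51 ± 0.30 (adjusted p = 0.202, edgeR). The 2 lower genes were Tph2 (-1.03 ± 0.36) and Rora (-0.45 ± 0.13). Cortical neuron markers, led by Mef2c, summed to 2513, 2529, 2597 and 2745 CPM in dcKO and 4654, 4983, 5049 and 5054 CPM in control. Of 20 tested 14 were lower (70%) and 3 higher (15%), beside 18.9% and 18.6% of all genes. The part of these cells in the level of Prm1 was not tested.

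**Figure D4:**
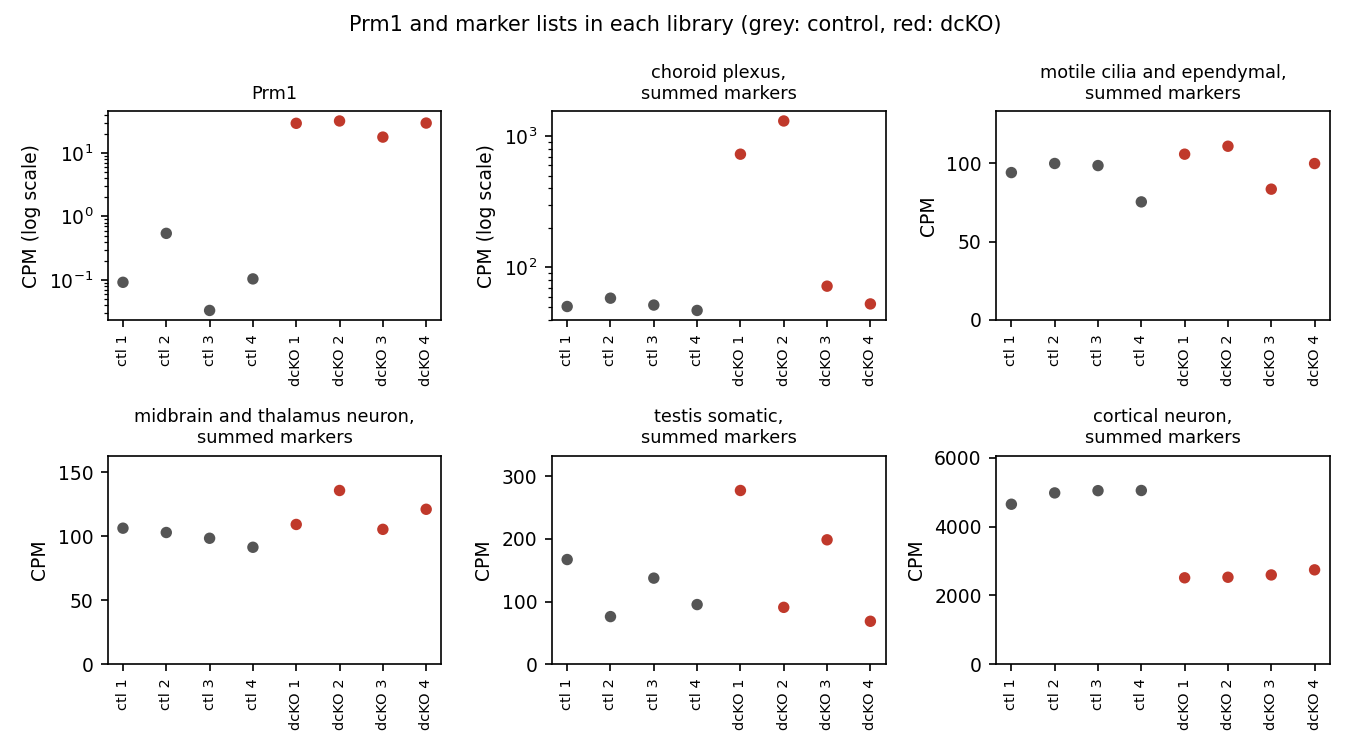
CPM of Prm1 and summed CPM of 5 marker lists (vertical, log scale for Prm1 and choroid plexus) in each of the 8 libraries (horizontal), with control in grey and dcKO in red. The choroid plexus sum, which Ttr and Enpp2 dominate, was 730 and 1307 CPM in dcKO replicates 1 and 2. It does not show single genes of that list. Otx2, 1500015O10Rik and Lmx1a were above every control in all 4 dcKO libraries, while Ttr, Folr1, Kl, Aqp1 and Clic6 were not.

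Few genes went from silence to clear detection as Prm1 nearly did. At most 3 counts in every control library and at least 10 in every dcKO library were found for 14 of the 48709 genes (0.0287%), and 0 of the 10 members were among them. Prm1 missed this because of the 11 counts in control replicate 2. The 14 include the homeobox genes Gbx2 and Uncx and the transcription factor genes Tfap2e, Prdm13, Olig3 and Ikzf3, which were picked out after their values were seen. The number was 1 with a limit of 1 count in control, 3 with at least 30 counts in every dcKO library, 27 without dcKO replicate 2 and 42 without both dcKO replicates 1 and 2.

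The genes whose log2 CPM was most like that of Prm1 over the 8 libraries included Shox2, Tmpo, Mum1l1 and Sema3a, with Pearson correlations of 0.998, 0.994, 0.993 and 0.993. Over 2 groups such values mainly describe the difference between the groups. Shox2, a homeobox gene, had 409, 404, 373 and 545 counts in dcKO and 1, 6, 0 and 0 in control, a pattern close to that of Prm1 in each library. Tmpo, which encodes a nuclear lamina protein, differed far less, with a fitted fold of 1.74. None of these 4 belongs to the germline lists or to chromosome 16.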

How the data were processed

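The deposited values are raw counts per gene, which the authors obtained with featureCounts after alignment to mm10 of TruSeq RNA libraries, a kit that does not mark strand. The aligner, annotation, strand setting and handling of multi-mapping reads are not given in the sources used here. Of 48709 identifiers 48349 had a symbol and position in GENCODE for that build. The members and lists were chosen with earlier results of these data known.

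Groups came from the sample titles. CPM used TMM library sizes. Genes were tested with edgeR (version 4.0.16, under R version 4.3.3) by its quasi-likelihood F test with robust dispersions, a minimum count of 10 in its default filter and no block, adjusted by the Benjamini-Hochberg method over all 16525 genes, with a threshold of 0.05. It was tested on simulated data first. SE of log2 fold changes came from the F statistic. The labels name separate samples, and p-values measure the spread between them. Ratios of summed counts use raw library totals and have exact Clopper-Pearson 95% intervals (scipy version 1.17.1), and a count of 0 was read as at most 3 counts, or 0.0934 to 0.142 CPM on the raw total of a single library. Both cover counting error only. Replicate pairs differed by more than sampling noise.

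Named genes are the members, Smarcc1 and Smarcc2, neighbours with at least 10 counts in some library, in each list the called genes with the 5 largest and 5 smallest fold changes and the 3 most abundant not called, the most abundant marker of each list, and the 5 genes most like Prm1 (log2 CPM, prior count of 2). Alternatives were DESeq2 (version 1.42.0), limma-voom (limma version 3.58.1), other normalizations, filters and blocks, lane 5 alone, each replicate left out, and both dcKO replicates 1 and 2 left out. Those for the marker lists and for Smarcc1 and Smarcc2 were chosen after seeing the data.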

Additional observations from a re-analysis of the deposited data

Results flagged for a closer look

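In 3 of 42 groups of 4 libraries 1 library stood apart from the other 3, by a gap to its nearest neighbour that was large against the whole range of the group. The limit used was set to be passed by chance in about 1 group in 20, or 2.1 of 42. That rate need not hold for groups of few counts, such as the Prm1 and Mael controls. Prm1 was at 0.542 CPM in control replicate 2, from 11 counts, against 1 to 3 counts in the other controls. Mael was at 0.312 CPM in control replicate 4, from 9 counts, against 0 or 1 in the other controls. The summed level of the meiosis genes was 127 CPM in control replicate 1 against 104 to 107 CPM in the other controls, and all 4 dcKO libraries were above it. The causes were not tested.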

How the results depend on the processing

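Of 119 named genes tested besides the members, 75 passed the threshold, and 36 of these did so in every alternative run, among them Smarcc1, Smarcc2, Tfap2c, Stag3, Zcwpw1, Tdrd9, Pld6, Rfx2, Camk4, Ring1, Hdac1 and Snn. The other 39 missed it in at least 1 alternative, most often without both dcKO replicates 1 and 2 (32) and on lane 5 alone (23), which hold fewer libraries. The direction of Prm1, Dazl, Ddx4 and Sycp3 was the same in every alternative. Apart from the runs that each dropped 1 library, the Prm1 log2 fold change ran from 6.58 to 7.59. Numbers of genes past the threshold, with the value from all libraries in brackets, and log2 fold changes that changed sign, all of genes not past it, follow by alternative, and where libraries or genes were not fewer the cause was not tested. Among genes with at least 10 counts in every library the numbers were 3 (6) for choroid plexus markers, 0 (1) for testis somatic markers and 4 (7) for midbrain and thalamus neuron markers. There the value was 0.00193 for the Nubp1 log2 fold change. With at least 30 counts asked of every dcKO library the numbers were 3 (14) for genes silent in control and detected in dcKO. With at most 1 count allowed in every control library the numbers were 1 (14) for genes silent in control and detected in dcKO. On lane 5 alone the numbers were 1951 (3074) for all genes higher in dcKO, 2 (4) for spermatid genes, 6 (13) for meiosis genes, 5 (11) for germline gene repressors, 3 (6) for spermatid transcription regulators, 3 (6) for cluster neighbours, 17 (6) for choroid plexus markers and 3 (7) for midbrain and thalamus neuron markers. There the value was -0.11 for the Ciita log2 fold change, -0.00634 for Dexi, -0.16 for Socs1, 0.0296 for the Cstf2t log2 fold change, 0.0129 for Tssk6, -0.12 for Tdrkh, 0.0678 for the Tbpl1 log2 fold change, -0.0255 for Star and -0.039 for Bcl11b. With library totals the value was 0.0966 for Tekt5, 0.11 for Nubp1, 0.0724 for Cstf2t, 0.0229 for Tdrd7, 0.099 for Ddx25, 0.0639 for the Dnmt3a log2 fold change, 0.0855 for Brwd1, 0.0656 for Tbpl1 and 0.0204 for Emx2. With limma-voom the value was -0.00947 for Ciita and -0.69 for the Ptgds log2 fold change. With no filter the numbers were 3 (6) for cluster neighbours. With the replicate number as a block the numbers were 3 (6) for cluster neighbours. There the value was -0.0793 for Ptgds. Without both dcKO replicates 1 and 2 the numbers were 1388 (3074) for all genes higher in dcKO, 1581 (3128) for all genes lower in dcKO, 1 (4) for spermatid genes, 7 (13) for meiosis genes, 4 (11) for germline gene repressors, 2 (6) for spermatid transcription regulators, 1 (6) for cluster neighbours, 7 (13) for motile cilia and ependymal markers and 42 (14) for genes silent in control and detected in dcKO. There the value was 0.0507 for Nubp1, -0.0388 for Litaf, 0.0276 for Ddx25, -0.0254 for Trim28, 0.0691 for Dnmt3a, -0.28 for Enpp2, -0.22 for Sostdc1, 0.0206 for Slc18a2 and 0.0148 for Slc6a4. Over the 8 runs that each dropped 1 library, the numbers ran from 7 to 12 for germline gene repressors, 3 to 8 for spermatid transcription regulators, 1 to 6 for cluster neighbours, 4 to 12 for choroid plexus markers, 1 to 2 for testis somatic markers, 7 to 12 for motile cilia and ependymal markers, 4 to 6 for midbrain and thalamus neuron markers and 14 to 27 for genes silent in control and detected in dcKO. The log2 fold changes ran from 6.86 to 8.42 for Prm1, -0.15 to 0.0601 for Tekt5, -0.0836 to 0.0682 for Nubp1, -0.0091 to 0.0674 for Tvp23a, -0.31 to 0.19 for Ciita, -0.0221 to 0.0479 for Dexi, -0.12 to 0.18 for Socs1, -0.0487 to 0.15 for Litaf, -0.00601 to 0.16 for Tdrkh and -0.0238 to 1.17 for Rec8. They also ran from -0.0125 to 0.11 for Elavl2, -0.0634 to 0.0302 for Ddx25, -0.00975 to 0.0665 for Trim28, -0.13 to 0.0226 for Dnmt3a, -0.00117 to 0.18 for Ybx1, -0.31 to 0.0181 for Slc6a4, -0.12 to 1.13 for Ptgds, -0.000751 to 0.0479 for Star, -0.0153 to 0.30 for Bcl11b, -0.0191 to 0.14 for Tbr1 and -0.22 to 0.00455 for Emx2. By correlation of deviations from the group mean, 1 of 4 controls correlated best with the dcKO library of its own number. This did not show a pairing by number and cannot exclude one. Control replicate 1 had 0.171 with its own number and 0.173 with dcKO replicate 2. The highest value, 0.255, joined control replicate 4 and dcKO replicate 3, the libraries with high Xist. Depth limits Prm2, Prm3, Tex101, Tnp2, Mael and Stk31, whose highest counts were under 10, and the fitted fold change of Prm1, which rests on 17 control counts.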
